A study of Mus musculus with 35 samples.

Results

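Txnip and 6 genes of the thioredoxin system were followed through the zygote and the early 2-cell (2C) embryo of the mouse: Txnip, Txn1, Txn2, Txnrd1, Txnrd2, Arrdc3 and Arrdc4. These 7 genes, of 24480 in the count table, were taken by their symbols. Txnip was selected on its counts, which had been seen to be lower in water-injected 2C embryos than in water-injected zygotes, and the others because they encode the proteins it acts on, the enzymes that serve them or its arrestin relatives. That difference between the water groups is therefore given below as a description, without a test.

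All embryos were wild type, of the strain C57BL/6NRj, and all were injected into the cytoplasm. The groups were 10 water-injected zygotes and 10 zygotes injected with Kdm5b-yfp mRNA, each a single embryo collected 17 h after ovulation, and 9 water-injected and 6 Kdm5b-injected 2C samples collected 5.5 to 8 h after division. The mRNA, at about 1150 ng per µl, encodes the histone H3K4 demethylase KDM5B with a fluorescent tag, and the study asked whether early removal of broad H3K4me3 domains changes gene expression. Embryos were collected about 5 to 6 h after injection. Of the water 2C samples 6 were intact embryos and 3 were pools of blastomeres from 2 or 3 embryos that had each lost a cell, and of the Kdm5b 2C samples 5 were intact and 1 was such a pool. The control received water and no mRNA, so what KDM5B protein does and what any injected mRNA does cannot be told apart. The 2C embryos had been frozen as zygotes and thawed, and zygote and 2C libraries were prepared on separate occasions, so stage, freezing and library day cannot be told apart.

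Thioredoxins are small proteins that reduce disulfide bonds in other proteins, and they are returned to their reduced form by thioredoxin reductases, which draw electrons from NADPH. Txn1 encodes the thioredoxin of the cytosol and nucleus and Txnrd1 its reductase, while Txn2 and Txnrd2 encode the mitochondrial pair. Txnip encodes thioredoxin-interacting protein, which binds reduced thioredoxin and blocks it. Txnip also belongs to the alpha-arrestins, adaptor proteins that link membrane proteins to endocytosis and ubiquitin ligases, as do Arrdc3 and Arrdc4, and it restrains glucose uptake by driving glucose transporters into the cell. In many cell types Txnip and Arrdc4 are transcribed in response to glucose by MondoA (Mlxip) or ChREBP (Mlxipl) together with their partner Mlx, which bind paired E-box-like motifs. The egg carries a large store of maternal transcripts, many of which are degraded before and during the major activation of the embryonic genome in the 2C embryo.

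The promoters of Txnip and Arrdc4 are shown because these relatives are both known targets of the MondoA and ChREBP pathway. The sequences are the 250 bases before the transcription start in RefSeq on GRCm38.p6, read 5′ to 3′ on the strand of the gene, at chr3:96557707-96557956 (+) for Txnip and chr7:68749239-68749488 (-) for Arrdc4. Capitals mark CACGNG on either strand and, in Arrdc4, also TGACNNNGC on either strand, the core of the antioxidant response element.
Txnip: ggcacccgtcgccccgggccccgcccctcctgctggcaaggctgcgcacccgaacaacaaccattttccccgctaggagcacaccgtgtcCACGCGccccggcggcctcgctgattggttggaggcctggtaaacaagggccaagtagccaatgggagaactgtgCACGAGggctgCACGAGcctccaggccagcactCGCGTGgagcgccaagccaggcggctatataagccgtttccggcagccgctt
Arrdc4: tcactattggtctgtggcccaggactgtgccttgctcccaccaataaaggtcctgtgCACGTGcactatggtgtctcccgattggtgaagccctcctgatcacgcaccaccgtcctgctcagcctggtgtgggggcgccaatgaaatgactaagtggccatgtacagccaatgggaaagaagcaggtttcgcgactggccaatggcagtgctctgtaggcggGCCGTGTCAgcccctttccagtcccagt
Txnip holds CACGNG 4 times, and the copies that begin 85 and 74 bases before the start stand on the same strand with 5 bases between them, which is the spacing of a carbohydrate response element. Of 32851 RefSeq promoters, searched on both strands from 250 bases before to 50 after the start, 27.5% held CACGNG and 0.0822% held it as a pair with 5 bases between. Arrdc4 holds CACGTG, which is 1 form of CACGNG, a single time, 193 bases before its start, and TGACNNNGC, present in 12.4% of promoters, 28 bases before it. CCAAT, the box bound by NF-Y, was found 6 times in Arrdc4 and 2 times in Txnip, and at least once in 37.4% of promoters. Neither promoter of this pair had a TATAAA match, which 13.6% of promoters had. Only these exact letters were searched, and the Txnip sequence shown holds the similar tatataag close to the start. A match in these letters does not show that a factor binds there.

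On GRCm38, Txnip lies at chr3:96557957-96561857 on the plus strand with 8 exons, Txn1 at chr4:57943373-57956411 (-, 5 exons) and Txn2 at chr15:77915051-77928994 (-, 4 exons). Txnrd1 lies at chr10:82833951-82897724 (+, 17 exons) and Txnrd2 at chr16:18426417-18479073 (+, 18 exons). Arrdc3 lies at chr13:80883422-80896042 (+) and Arrdc4 at chr7:68736994-68749238 (-), with 8 exons each. All fragments were counted on exons and with regard to strand. An antisense gene, Gm15441, overlaps exons of Txnip, and its counts were between 0.409% and 1.80% of those of Txnip over the 4 groups. No stretch of 91 bases of any member transcript was shared with a transcript of another gene.

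Gene counts summed to between 8705584 and 17797581 per sample. Kdm5b took 2.30% to 15.8% of the counts in injected samples and at most 0.0190% in water samples, matching the labels, and its row was left out before normalisation. No samples had identical counts. Replicates of log2 CPM, the counts scaled to the library total, correlated at 0.973 to 0.988 in zygotes and at 0.899 to 0.970 in 2C samples, so 2C samples were more unlike each other. The summed level of 12 oocyte and zygote markers was high in every group, at 13847 to 19532 TPM, a level scaled to exon length and library total. The summed level of 11 detected 2-cell genes was 48.1 to 138 TPM in zygotes and 309 to 1214 TPM in 2C samples. The summed level of 18 cumulus and granulosa cell markers was 16.6 to 55.9 TPM over all samples. Of these markers 18 were above 0 in water zygotes, 17 in Kdm5b zygotes and 14 in each 2C group. Hsd3b1 was at 0 in every group but the water zygotes, and Amh and Inha were at 0 only in the 2C groups.

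Txnip was among the most abundant transcripts of the zygote. In TPM, which allow genes of different length to be compared, the 10 water zygotes ranged from 548 to 1126 around a median of 870, with a mean of 842 ± 205 (SD, n = 10), rank 144 of 24479 genes. The Kdm5b zygotes ranged from 787 to 1291 around a median of 919, with a mean of 1002 ± 178 (SD, n = 10), rank 101. The ranges of the zygote groups overlapped over most of their length. In the 2C embryo Txnip was a moderately expressed gene. The water 2C samples ranged from 50.5 to 114 TPM around a median of 65.8, with a mean of 71.7 ± 23.1 (SD, n = 9), rank 2612, and the Kdm5b 2C samples from 69.5 to 125 TPM around a median of 82.8, with a mean of 87 ± 20.7 (SD, n = 6), rank 2173. Every 2C sample, whether intact or pooled, lay below every zygote, as the plot of Txnip in each sample shows.

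**Figure D1:**
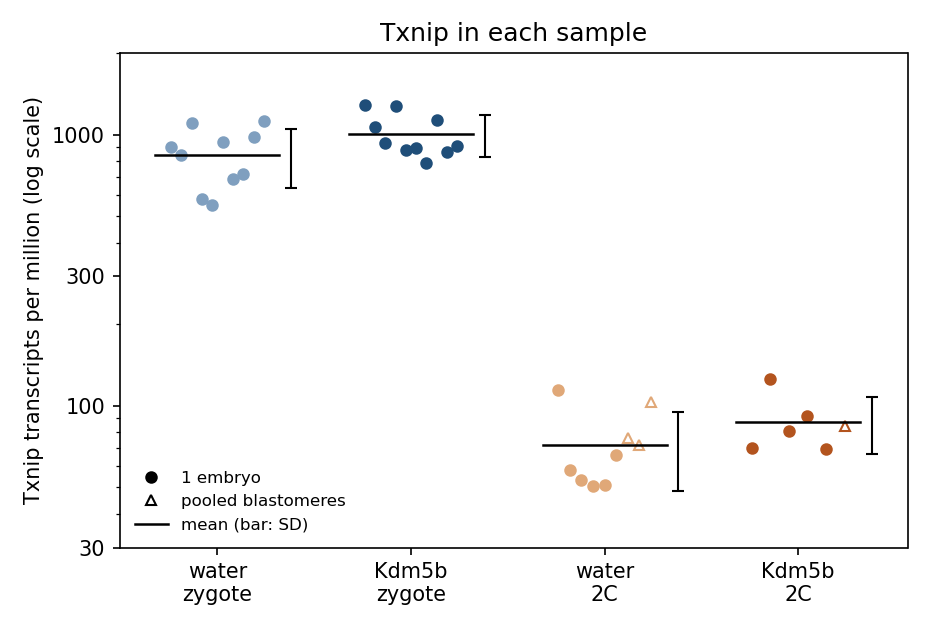
Txnip level in each sample, in TPM on a log axis, for water and Kdm5b-injected zygotes (n = 10 each) and 2C samples (n = 9 and n = 6). Filled circles are samples of 1 embryo, open triangles are pooled blastomeres, lines are means and bars SDs. The lowest zygote stands at 548 and the highest 2C sample at 125.

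The targets of Txnip were unequally expressed. Txn1 was low, with 8.08 to 25.6 TPM around a median of 19.6 in water zygotes and a mean of 19.0 ± 6.38 (SD, n = 10). Kdm5b zygotes had 12.9 to 32.7 TPM around a median of 19.9 and a mean of 20.1 ± 5.92 (SD, n = 10). The ranges of the zygote groups overlapped from 12.9 to 25.6 TPM. In 2C samples Txn1 stood near the limit of what the depth could resolve, with 2 to 43 counts per water sample and 5 to 28 per Kdm5b sample. These correspond to 0.518 to 10.8 TPM around a median of 4.68 in water (mean 5.10 ± 3.58, SD, n = 9) and to 1.38 to 8.09 TPM around a median of 3.01 after Kdm5b (mean 4.00 ± 2.60, SD, n = 6). The mitochondrial Txn2 was an abundant and steady transcript. Its means were 200 ± 20.5 TPM in water zygotes and 190 ± 14.7 in Kdm5b zygotes (SD, n = 10 each), 193 ± 40.4 in water 2C samples (SD, n = 9) and 196 ± 40.6 in Kdm5b 2C samples (SD, n = 6). The lowest sample of any group had 130 TPM and the highest 270 TPM. Its coefficient of variation was 10.3% and 7.73% in the zygote groups and 20.9% and 20.7% in the 2C groups.

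The reductases also differed in level. Txnrd1 had 142 to 176 TPM around a median of 170 in water zygotes (mean 162 ± 13.6, SD, n = 10) and 131 to 187 TPM around a median of 157 in Kdm5b zygotes (mean 156 ± 20.0, SD, n = 10). It had 42.3 to 115 TPM around a median of 61.2 in water 2C samples (mean 70.2 ± 26.5, SD, n = 9) and 37.1 to 96.2 TPM around a median of 57.3 in Kdm5b 2C samples (mean 63 ± 21.9, SD, n = 6). The 2C ranges lay wholly below the zygote ranges. Txnrd2 was barely detected, with 0 to 17 counts in water zygotes and 0 to 9 in Kdm5b zygotes, and with 0 counts in all 9 water 2C samples. Those 0 counts, of 96992924 fragments in all, allow up to 0.0309 CPM (3 counts over the group). The 0.392 CPM of the water zygotes was 12.7 times that limit. Limits of this kind reflect counting error alone, because copies made by PCR are not separate molecules. In Kdm5b 2C samples Txnrd2 had 13 counts in the pool (replicate 6), 3 counts in replicate 5 and 0 in the other 4. The gene did not pass the filter on low counts in any comparison and has no value in the tests below.

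The arrestin relatives were low throughout. Arrdc3, which guides the removal of receptors from the cell surface, had 3.05 to 5.53 TPM around a median of 4.22 in water zygotes and 1.91 to 7.59 around a median of 3.82 in Kdm5b zygotes. In 2C samples it had 2.59 to 13.4 TPM around a median of 6.81 in water and 2.91 to 14.9 around a median of 6.5 after Kdm5b. Its ranges overlapped between all 4 groups. Arrdc4, the close relative of Txnip that also acts on glucose transporters, had medians of 0.269 and 0.387 TPM in water and Kdm5b zygotes, with at most 2.73 TPM. It was unevenly present in water 2C samples, where replicates 2, 4 and 8 had 8.78, 11.1 and 7.35 TPM and the other 6 between 0 and 1.52 TPM. All 6 Kdm5b 2C samples had Arrdc4, at 2.23 to 8.46 TPM around a median of 4.19 and with 31 to 115 counts. High water samples were found among intact embryos and among pools alike.

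**Figure D2:**
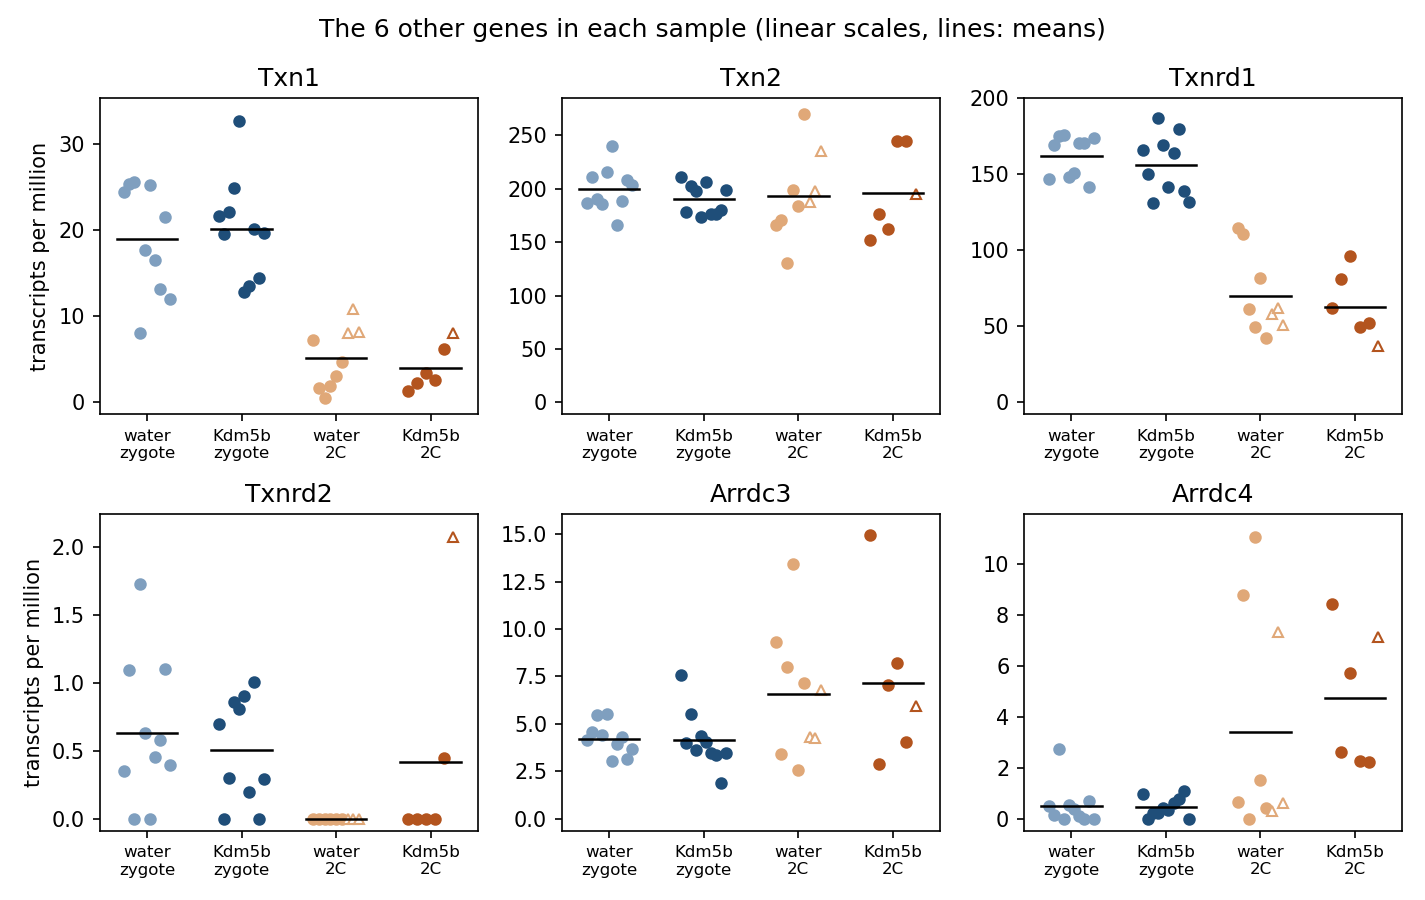
Levels of the 6 other genes in each sample, in TPM on linear axes that differ between panels, with groups and symbols as in the plot of Txnip and lines at the means. Txn2 stays near 200 in all groups, Txn1 and Txnrd1 are lower in 2C samples, Txnrd2 is 0 in every water 2C sample, and Arrdc4 is scattered in water 2C samples.

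The order of the levels therefore changed between the stages. In both zygote groups it ran Txnip, Txn2, Txnrd1, Txn1 and Arrdc3, followed by Txnrd2 and Arrdc4. The neighbours Txn2 and Txnrd1 overlapped, as did Txnrd2 and Arrdc4, while the ranges of the other neighbours did not meet. In both 2C groups Txn2 came first, with no overlap with Txnip. Txnip and Txnrd1 overlapped there, as did Arrdc3, Txn1 and Arrdc4. Of the summed TPM of the 7 genes, Txnip held 67.8% ± 5.29 in water zygotes and 72.7% ± 2.55 in Kdm5b zygotes (SD, n = 10 each) but 20.2% ± 4.45 in water 2C samples (SD, n = 9) and 24.0% ± 4.55 in Kdm5b 2C samples (SD, n = 6). Txn2 held 16.6%, 14.0%, 55.2% and 53.9% in the same groups. The summed transcripts were thus mostly those of the inhibitor in zygotes and mostly those of the mitochondrial thioredoxin in 2C samples.

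**Figure D3:**
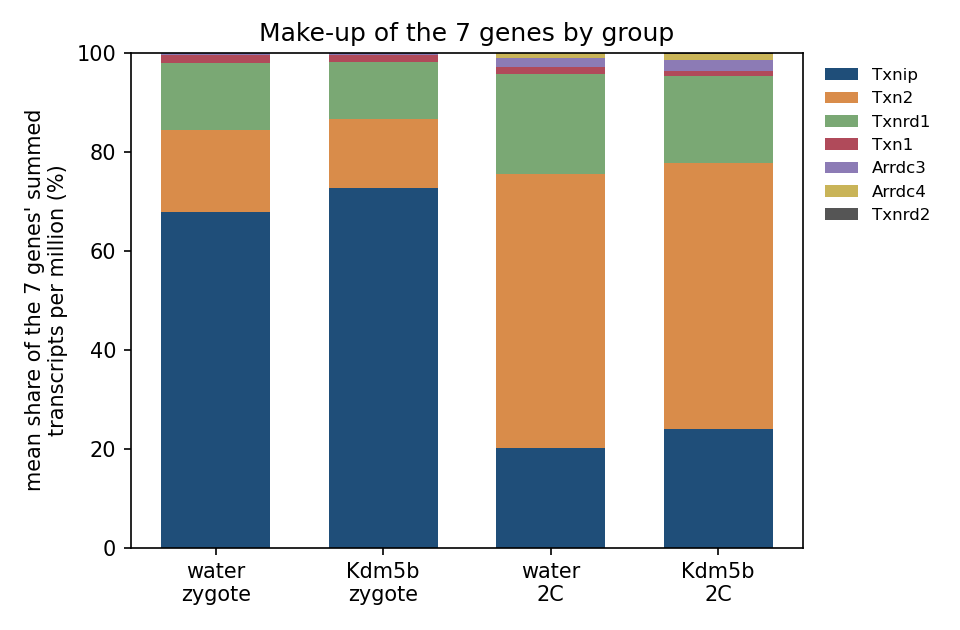
Mean share of each gene in the summed TPM of the 7 genes, in percent, for the 4 groups (n = 10, 10, 9 and 6). Txnip makes up 67.8% and 72.7% in the zygote groups and 20.2% and 24.0% in the 2C groups, where Txn2 takes the largest share.

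The first question was whether Kdm5b-yfp mRNA changed these genes in zygotes. No member passed the test. A gene counted as called where its adjusted p was under 0.05 and its log2 fold change was beyond 1 in either direction, and edgeR's quasi-likelihood test did so for 0 of the 5 members that passed the filter on low counts, against 0.00838% of the 11933 genes tested. DESeq2 also called 0 members. By edgeR 1 of the 5 had an unadjusted p under 0.05, as did 1234 of all 11933 genes. By DESeq2, and in an edgeR fit of all 35 samples, 0 members had. The 1 member by edgeR was Txnip, whose log2 fold change was 0.26 (SE 0.11, 95% interval 0.03 to 0.49, edgeR p = 0.0276, adjusted p = 0.415). For Txnip 9 of the 10 Kdm5b zygotes lay above the mean of the water zygotes. The labels give each library an index number, and runs of 8 consecutive numbers, here called strips, were used to look for differences in handling. Within the zygote strips the Kdm5b minus water difference of Txnip in log2 CPM was 0.44 in strip 8 and 0.35 in strip 9 (4 against 4 each) and -0.22 in strip 10 (2 against 2), against 0.27 over all. The sign was thus not the same in every strip. Txn1 (0.10, 95% interval -0.31 to 0.50), Txn2 (-0.06, -0.19 to 0.07), Txnrd1 (-0.05, -0.18 to 0.08) and Arrdc3 (-0.02, -0.40 to 0.36) had intervals that included 0, and all of these intervals lay within a log2 fold change of 1. Txnrd2 and Arrdc4 did not pass the filter.

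The same question was asked in 2C embryos. No member passed there either, and edgeR called 0 of the 6 members tested, against 0.00817% of 12244 genes. DESeq2 called 0 members, and 0 had an unadjusted p under 0.05. Txnip had a log2 fold change of 0.32 (SE 0.20, 95% interval -0.09 to 0.73, adjusted p = 0.665), and 4 of the 6 Kdm5b samples lay above the mean of the water samples. Without water 2C replicate 1 or 9 its unadjusted edgeR p was 0.0397 or 0.0402, with an adjusted p of 0.503 or 0.497. With replicate number as a further term 1 member had an unadjusted edgeR p under 0.05, as did 1375 of all 12244 genes. In strip 11, which held 3 water and 5 Kdm5b samples, the difference in log2 CPM was 0.39, and in strip 12, with 6 water samples and 1 Kdm5b sample, it was 0.01. Txn2 (0.06, 95% interval -0.28 to 0.40), Txnrd1 (-0.12, -0.58 to 0.34) and Arrdc3 (0.16, -0.63 to 0.95) were also close to 0. The low counts of Txn1 (-0.30, -1.77 to 1.16) and the uneven Arrdc4 (0.52, -1.14 to 2.18) left intervals that do not exclude changes of the size of the threshold. For Txn1 the sign depended on the samples, being 0.06 in intact embryos alone and 0.30 in strip 11 alone.

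An interaction term over all 35 samples asked whether the Kdm5b difference itself changed from zygote to 2C embryo. It was called for 0 of 6 members, against 0.0145% of 13778 genes tested, DESeq2 called 0, and 0 members had an unadjusted p under 0.05. For Txnip the Kdm5b difference in 2C samples minus that in zygotes was 0.07 on the log2 scale (95% interval -0.39 to 0.53, edgeR adjusted p = 0.970). Within the injected groups the members were also set against the share of counts taken by Kdm5b, as a measure of dose. In zygotes 0 of 5 members were called on dose by edgeR, against 0% of 10273 genes, and in 2C samples 0 of 5, against 0% of 9499 genes. In each, 1 member had an unadjusted p under 0.05, as did 369 and 743 of all genes. Txnip had a slope of 0.20 on the log2 scale per doubling of the Kdm5b share in zygotes (edgeR p = 0.0212, adjusted p = 0.999) and of -0.17 in 2C samples (adjusted p = 0.908). Txnrd1 had a slope of -0.85 per doubling in 2C samples (edgeR p = 0.0174, adjusted p = 0.565) and of 0.06 in zygotes (adjusted p = 0.999). A dose relation was thus not shown for either gene.

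The next comparison was between the stages. In the water groups, on which Txnip was chosen, the log2 fold change of 2C samples over zygotes was -3.47 for Txnip, -1.79 for Txn1, -1.13 for Txnrd1, 0.04 for Txn2 and 0.73 for Arrdc3. The mean Txnip level was 11.8-fold lower in TPM. The Kdm5b-injected embryos, which the choice had not used, allow a test in other samples, although stage, freezing and library day move together there as well. In them edgeR called 4 of the 6 members tested, 3 lower in 2C samples and 1, Arrdc4, higher. Arrdc4 passed the filter on low counts only through the 2C samples, where it is high, so its call is not read as a result. Txn1 passed it only through the zygotes, where it is high, so its call is not read as a result either. Over all 12390 genes tested, 16.0% were called lower and 10.5% higher, and the median log2 fold change was 0.01, so calls were common among all genes. Each sample is a whole embryo or a pool of blastomeres, and a lower level in all cells and a loss from some cells cannot be told apart.

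Txnip fell by 3.41 on the log2 scale (SE 0.15, 95% interval -3.72 to -3.10, edgeR adjusted p = 1.82e-14), which is 11.5-fold in mean TPM. All 6 Kdm5b 2C samples lay below all 10 Kdm5b zygotes. Among the 1977 genes called lower it stood at rank 9 by p and rank 19 by fold. Txn1, the partner it inhibits, was lower by 2.20 (SE 0.36), which is given as a description for the reason above. Its groups did not overlap, but it had 5 to 28 counts per 2C sample. Txnrd1 fell by 1.21 (SE 0.14, adjusted p = 9.45e-08), also with no overlap. Among the genes called lower Txnrd1 stood at rank 824 by p and 1526 by fold. How many of all genes did not overlap was not counted. The cytosolic reductase gene Txnrd1 was thus lower along with Txnip, where 16.0% of all genes were called lower. The mitochondrial thioredoxin gene Txn2 did not pass the test. It had a log2 fold change of 0.15 (95% interval -0.08 to 0.38, adjusted p = 0.257) whose interval lay well within the threshold of 1.

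Of the arrestin relatives, Arrdc4 had a mean of 0.470 ± 0.382 TPM in Kdm5b zygotes (SD, n = 10) and of 4.74 ± 2.74 TPM in Kdm5b 2C samples (SD, n = 6), and the groups did not overlap. Only 4 of the 10 zygotes had 10 or more counts, against all 6 of the 2C samples, and the fitted log2 fold change of 3.43 (SE 0.56, 95% interval 2.26 to 4.59) is given as a description for that reason. In the water groups Arrdc4 did not pass the filter, and 3 of the 9 water 2C samples lay above the highest water zygote. Arrdc3 was 0.88 higher (SE 0.29, adjusted p = 0.0122) and so passed the limit on p but not that on the fold change, and the groups overlapped. Without Kdm5b 2C replicate 1 it was 0.57 higher, with an adjusted p of 0.0868. By adjusted p alone 29.3% of all genes were higher and 29.5% lower. The summed level of the cumulus and granulosa markers was 29.6 to 55.9 TPM in Kdm5b zygotes and 16.6 to 42.4 TPM in Kdm5b 2C samples, and of the 18 markers 17 and 14 were above 0. Their part in these results was not tested.

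**Figure D4:**
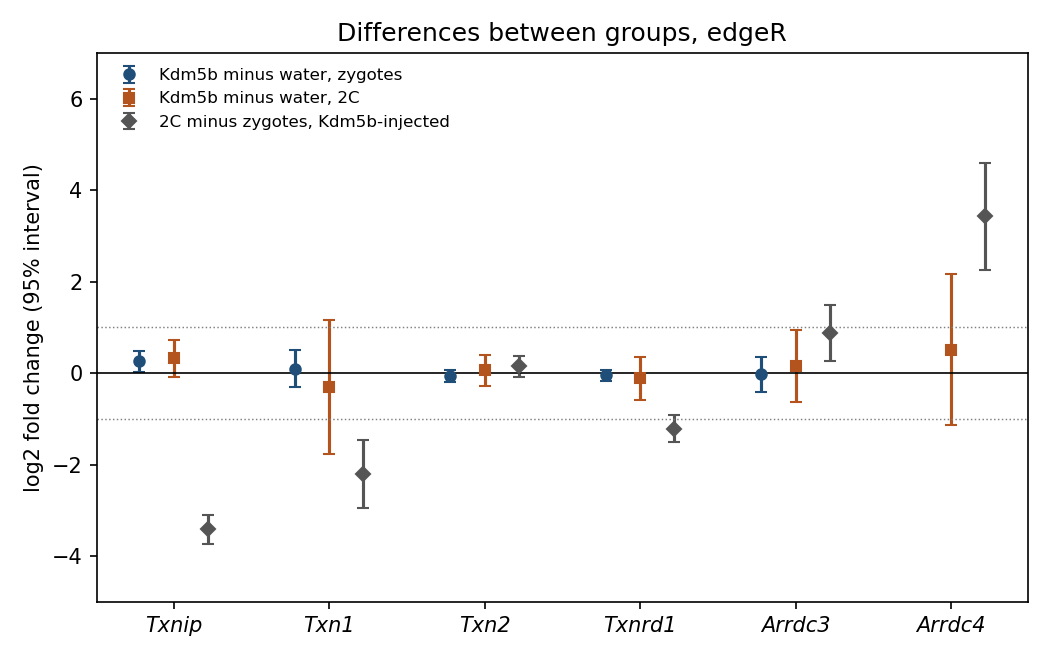
Log2 fold changes of 6 genes with 95% intervals from edgeR, for Kdm5b minus water in zygotes (circles) and 2C samples (squares) and for 2C samples minus zygotes after Kdm5b injection (diamonds). Dotted lines mark the fold change threshold, and Arrdc4 has no zygote value because it was filtered out. All Kdm5b differences lie within the dotted lines, though the 2C intervals of Txn1 and Arrdc4 extend past them, while in the comparison of stages Txnip, Txn1 and Txnrd1 lie below and Arrdc4 above.

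Because inhibitor and target both fell, their balance was examined as the log2 ratio of Txnip to Txn1 in TPM within each sample. The median ratio of Txnip to Txn1 was 42.4 in water zygotes, 55.4 in Kdm5b zygotes, 15.8 in water 2C samples and 29.3 in Kdm5b 2C samples. The ratio ranged from 26.8 to 94 over the zygotes and from 6.63 to 103 over the 2C samples. The 103 was that of water 2C replicate 3, where Txn1 had only 2 counts. The highest ratio in Kdm5b 2C samples was 55.4. Kdm5b minus water was 0.15 on the log2 scale in zygotes (permutation test, two-sided, p = 0.467, adjusted over 3 ratios p = 0.472) and 0.43 in 2C samples (exact permutation test, two-sided, p = 0.472, adjusted p = 0.472). In Kdm5b-injected embryos the ratio was lower in 2C samples than in zygotes by a log2 difference of -1.003 (exact permutation test, two-sided, p = 0.0222, adjusted p = 0.0667). That difference did not pass the adjusted threshold, and Txn1 had as few as 5 counts in these samples. The mitochondrial Txn2 against the cytosolic Txn1 had median ratios of 9.82 and 9.49 in the zygote groups and 57.7 and 63 in the 2C groups.

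The 2C samples made up of pooled blastomeres were compared with intact embryos. The 4 pools of blastomeres had 8.02 to 10.8 TPM of Txn1, and the 11 intact 2C embryos 0.518 to 7.20 TPM. With the injection as a covariate, edgeR gave a log2 difference of 1.55 (SE 0.69, p = 0.0355, adjusted p = 0.872), and 0 of 6 members were called, by DESeq2 too, against 0.0327% of 12244 genes. The comparison was made after the values had been seen, and with each 2C sample left out the unadjusted edgeR p of Txn1 ranged from 0.0195 to 0.0920, the highest without the Kdm5b pool (replicate 6). With the index strip as a further term, 0 of 6 members had an unadjusted edgeR p under 0.05. Within strip 12, which held the 3 water pools, water pools had 8.02 to 10.8 TPM and the 3 intact water embryos 1.89 to 4.68 TPM. The difference within that strip was not tested. For Txnip the pools, at 71.7 to 104 TPM, lay within the range of the intact embryos, 50.5 to 125 TPM.

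Genes related to the system were described in 5 lists of 75 genes in all. In zygotes 0 of 63 tested genes were called by edgeR between Kdm5b and water, and 0 by DESeq2. By edgeR 7 reached an unadjusted p under 0.05, as did 1234 of all 11933 genes tested. Among 2C samples 0 of 65 were called by edgeR, and 0 by DESeq2. By edgeR 5 had an unadjusted p under 0.05, as did 1152 of all 12244 genes. The smallest p among these 65 was that of Mlxip, named here after its values were seen, with a log2 fold change of 0.50 (SE 0.11, edgeR p = 0.000128, adjusted p = 0.108). By adjusted p alone DESeq2 passed 1 of the 65 in 2C samples, where 105 of all 12244 genes passed. With the index strip as a term edgeR passed 1 there too, where 253 of all genes did. In zygotes DESeq2 passed 1 of the 63 by adjusted p alone, where 102 of all 11933 genes passed. Between the stages in Kdm5b-injected embryos 12 of 65 (18.5%) were called lower and 5 (7.69%) higher, and DESeq2 also called 17. These shares were near the 16.0% and 10.5% of all genes.

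Among 16 tested relatives with a thioredoxin fold, 4 fell and 1 rose, with a median log2 fold change of -0.56. Txnrd3, a reductase that acts on both thioredoxin and glutathione, fell by 1.85 (adjusted p = 6.58e-12), Tmx4, a membrane protein of the endoplasmic reticulum, fell by 1.67, and Txndc9 fell by 1.46. The membrane oxidoreductase Tmx3 rose by 1.25 (adjusted p = 0.00980). Among 14 tested proteins that thioredoxin reduces or regulates, 2 fell and 1 rose, with a median of 0.18. The mitochondrial peroxiredoxin Prdx3 fell by 1.86 (adjusted p = 3.85e-06) and the DNA repair and redox factor Apex1 fell by 1.82, whereas Srxn1, which repairs oxidised peroxiredoxins, rose by 1.56 (adjusted p = 0.0376).

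The glutathione system is the parallel route for reducing proteins. Of its 12 tested genes 3 fell and 1 rose, with a median of -0.39. The 3 were glutaredoxins, Glrx (fell by 2.21, adjusted p = 2.76e-11), Glrx3 (fell by 1.51) and Glrx5 (fell by 1.07), and the gene that rose was the glutathione peroxidase Gpx1 (1.46, adjusted p = 0.00279). Of 4 tested arrestins 0 were called by edgeR, and the median was -0.15. An unadjusted p under 0.05 was found for 3 of these 4, and for 62.4% of all genes tested.

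Of 19 tested regulators and partners of Txnip, 3 fell and 2 rose, with a median of 0.05. Mlx, the partner of MondoA and ChREBP, fell by 1.28 (adjusted p = 0.00460), while Mlxip, which encodes MondoA, rose by 1.16 (adjusted p = 1.19e-10). Ddit4, a stress-induced inhibitor of mTOR signalling that binds Txnip, fell by 1.64, and Keap1, the sensor that holds back the antioxidant factor NRF2, fell by 1.05. The glucose transporter gene Slc2a3 rose by 2.43 (adjusted p = 0.000780). The median over all genes was 0.01.

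**Figure D5:**
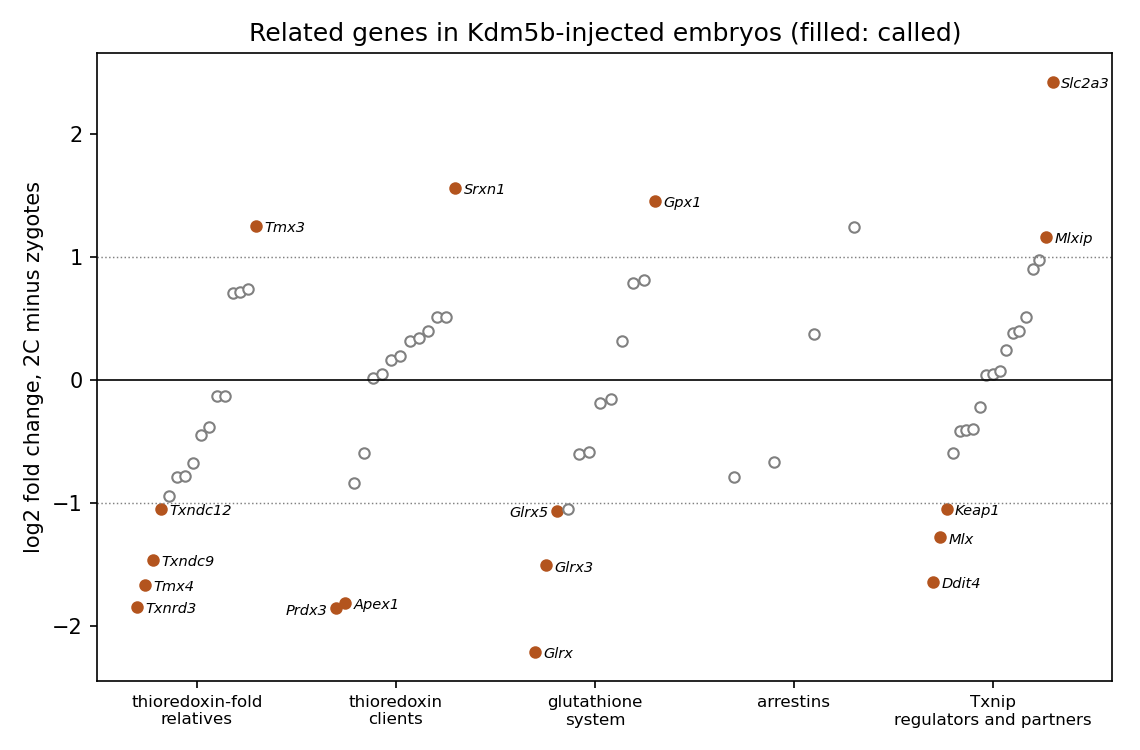
Log2 fold changes of 65 related genes in 5 lists, 2C samples minus zygotes after Kdm5b injection, sorted within each list. Filled points, with names, were called, with adjusted p under 0.05 and a fold change beyond the dotted lines at -1 and 1. Of the 17 filled points 12 lie below 0 and 5 above.

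The paired motif shown above for Txnip was found in the promoters of 26 genes, Txnip included. Of the others 13 were tested between the stages in Kdm5b-injected embryos, and 1 was called lower and 1 higher, where 16.0% and 10.5% of all genes were. Their median log2 fold change was -0.17.

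The genes whose pattern was most like that of Txnip were found by Pearson correlation of log2 CPM over all 35 samples, which mostly reflects the difference between the stages. They were Tacc3 (r = 0.985), Gm813 (0.976), Taf1a (0.975), Timm9 (0.975) and Plat (0.975). Like Txnip, each of them had a higher mean TPM in both zygote groups than in both 2C groups. When deviations from the group means were correlated instead, the closest were Tspan14 (r = 0.747), Dedd (0.728), Nfya (0.728), Ccdc117 (0.727) and Rnf114 (0.725), so the lists shared 0 genes. These values describe samples that share library batches and depth. Among the members themselves, the deviations of Txnip correlated with those of Txn1 at 0.497 and with those of Txnrd1 at 0.187 (35 samples). Txn1 and Txn2 correlated at 0.516, and Txn2 and Txnrd1 at -0.575, so the samples of a group with more Txn2 tended to have less Txnrd1. The strips of the water 2C samples differed in the same direction. Mean log2 CPM there was 6.05 in strip 11 and 6.53 in strip 12 for Txn2, and 6.95 and 6.27 for Txnrd1. The part of the strips in this correlation was not tested.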

How the data were processed

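RNA of 35 samples of mouse zygotes and 2C embryos was sequenced. Per the labels and the study's methods, the authors prepared stranded total RNA libraries from intact cells, trimmed the reads with fastp 0.21.0, aligned them to GRCm38 with STAR 2.7.3a and counted fragments per RefSeq gene by strand with featureCounts 1.5.1. The authors deposited these raw counts, with exon lengths, as a table of 24480 genes. Fragments that map to several places are left out by such counting, which lowers genes with near-identical copies. The deposited table of repeats was not used here. Groups came from the sample titles, and 0 columns belonged to no sample.

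The Kdm5b row was removed, as in the study. For each comparison all genes of the groups concerned were fitted with edgeR 4.0.16 (R 4.3.3; TMM, filterByExpr with a minimum count of 10, quasi-likelihood test, Benjamini-Hochberg adjustment), and calls needed the study's limits, an adjusted p under 0.05 and a log2 fold change beyond 1 either way. TPM were counts divided by exon length and scaled per sample. log2 CPM used a prior count of 2. Ratios were compared with permutation tests in scipy 1.17.1, with 100000 resamples or exact. The fits were tested on simulated data. The 7 genes, the 5 lists of related genes, the markers and the tests were chosen with earlier results of these data known. Named genes were the members, up to 3 called genes per list and direction with the largest fold change, and the 5 genes most correlated with Txnip by each measure, with Mlxip in 2C samples added after its values were seen.

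Alternatives were DESeq2's size factors, the Wald test of DESeq2 1.42.0, other filters, the Kdm5b row kept, no fold change limit, intact embryos alone, 1 fit of all samples, a replicate block, the index strip as a term and each sample left out. Strip 11 alone and the comparison of pools with intact embryos were added after seeing the data. The labels number the replicates but do not say that a number is shared between groups by a litter or day, nor which embryos came from the same female, so p-values measure the spread between these samples.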

Additional observations from a re-analysis of the deposited data

Results flagged for a closer look

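Of 27 combinations of gene and group with any spread, 2 held a sample that stood apart from the rest of its group by Dixon's test. For normally distributed values chance alone flags about 1 in 20. Both flagged combinations held samples at 0 TPM, for which that rate does not hold. Txnrd2 had 2.07 TPM (13 counts) in Kdm5b 2C replicate 6, the pool of blastomeres, where the next sample had 0.447 TPM (3 counts) and the gap was 0.784 of the range (critical value 0.625, n = 6). Arrdc4 had 2.73 TPM (59 counts) in water zygote replicate 3, where the next sample had 0.709 TPM and the gap was 0.740 of the range (critical value 0.466, n = 10). Neither sample stood apart in Txnip.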

How the results depend on the processing

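Between the stages in Kdm5b-injected embryos, 4 members were called under every alternative except the filter at a mean of 50 counts, where Arrdc4 dropped out and 3 were called, the omission of the fold change limit (5), and the omission of Kdm5b zygote replicate 1 or Kdm5b 2C replicate 2, where Arrdc3 joined them (5). These counts include Arrdc4, which passed the main filter only through 2C samples, and Txn1, which passed it only through zygotes. Arrdc3 was 0.57 higher without Kdm5b 2C replicate 1, with an adjusted p of 0.0868 (0.0122 with all samples). Txnip kept its fall there, between -3.56 and -3.34 with each sample left out. Related genes called numbered 17, and 45 of 65 without the limit on fold change, where 7279 of all 12390 genes passed. Members and related genes called between Kdm5b and water stayed at 0 under every alternative run, as did members called in the interaction and on dose. Calls among all genes varied more. Between Kdm5b and water in 2C samples they numbered 1 of 12244 in the main fit and 53 with the strip as a term. They numbered 70 of 12426 in strip 11 alone and 70 of 13778 in the fit of all samples. For the interaction they rose from 2 of 13778 to 75 with the strip as a term.

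The ratio of Txnip to Txn1 between the stages passed the adjusted threshold with 1 count added to both genes (-1.12, adjusted p = 0.0232) and with Kdm5b zygote replicate 5, Kdm5b 2C replicate 1 or Kdm5b 2C replicate 2 left out, and ranged from -1.23 to -0.75 with each sample left out. Without Kdm5b 2C replicate 3, 5 or 6 the unadjusted exact permutation p was 0.0533, 0.0593 and 0.0593. The highest adjusted p with a sample left out was 0.178. The cause was not tested.

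Values near 0 changed sign. For Txn1 in 2C samples Kdm5b minus water was 0.059 in intact embryos, 0.21 with the strip as a term and 0.30 in strip 11. The strip term gave -0.013 for Arrdc3 in 2C samples and -0.030 for the interaction of Txnip. The dose slope of Txnrd1 in zygotes was -0.0024 without the 2 samples farthest from the median. With each sample left out, the Kdm5b difference in zygotes ranged from -0.0067 to 0.15 for Txn1 and from -0.16 to 0.062 for Arrdc3. In 2C samples it ranged from -0.027 to 0.14 for Txn2 and from -0.17 to 0.36 for Arrdc3. The interaction of Txnip ranged from -0.070 to 0.17, and its dose slope in 2C samples from -0.32 to 0.35, positive without Kdm5b 2C replicate 2.

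Replicate numbers did not pair the samples. The deviations of same-numbered samples correlated at -0.0696 to 0.102 over the 10 pairs of zygotes and -0.185 to 0.0688 over the 6 pairs of 2C samples. With the replicate block the Kdm5b difference of Txnip was 0.28 in zygotes and 0.52 in 2C samples, with 0 members called in each, that of Txn1 in 2C samples was 0.61, and Txnip between the stages was -3.50, with 4 members and 14 related genes called. In that fit Arrdc3 had an adjusted p of 0.162.

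Without the filter on low counts Txnrd2 was fitted too, and it was not called in any comparison run without it. The counts of Txn1, Arrdc4 and Txnrd2 limit what can be said of them in 2C samples.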
